A study of Mus musculus with 39 samples.

Results

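Transcript levels of 9 cyclin genes and of *Cdk1*, the kinase that the mitotic cyclins activate, were examined in mouse oocytes, fertilized and cloned 2-cell embryos and donor cumulus cells. The members were *Ccna1*, *Ccna2*, *Ccnb1*, *Ccnb2*, *Ccnd1*, *Ccnd2*, *Ccnd3*, *Ccne1*, *Ccne2* and *Cdk1*, which are 10 of the 18905 genes named on the array. They were found by symbol, through the RefSeq name of the transcript that each probe was designed on. All 10 genes had a probe: 5 had 1 probe and 5 had several, which gave 17 probes, and all 17 passed the filter on low signals.

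Oocytes, embryos and cumulus cells came from (B6xDBA/2)F1 mice, and the females had been superovulated. The groups were unfertilized metaphase II oocytes (OC, n = 7 arrays), 2-cell embryos from in vitro fertilization (IVF, n = 6 arrays), 2-cell embryos cloned by somatic cell nuclear transfer (SCNT) from cumulus cells without treatment (TSA(-), n = 8) or with trichostatin A (TSA(+), n = 6), and the cumulus cells used as nuclear donors (Cumulus, n = 4). Trichostatin A (TSA), an inhibitor of histone deacetylases, was given at 5 nM for 8 h from activation. Cumulus-cloned embryos without TSA had been injected at the pronuclear stage with mRNA of the transcription factor Spi-C at 1.0 mg/ml (Spi-C 1.0, n = 4) or 0.1 mg/ml (Spi-C 0.1, n = 4), and both together are called Spi-C NT. All embryos were cultured for 24 h, each array held the RNA of 10 pooled oocytes or embryos or of 500 cumulus cells, and the labels do not say whether pools of a group came from separate animals or days, so that p-values measure the spread between these pools. That spread is estimated for each probe over all groups fitted together, so the OC and Cumulus pools also enter the comparisons of TSA(-) and TSA(+) with IVF. Because each array is a pool, a lower level in some cells and fewer cells with the transcript cannot be told apart.

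Cyclins are the regulatory subunits of cyclin-dependent kinases and rise and fall with the cell cycle. B-type cyclins bind Cdk1 to form the M-phase kinase that also holds the oocyte at metaphase II, A-type cyclins act in S phase and at the entry into mitosis, E-type cyclins bind Cdk2 at the start of DNA replication, and D-type cyclins bind Cdk4 or Cdk6 in G1. The first cell cycles of the mouse embryo start from maternal transcripts, which are degraded while the embryonic genome is activated at the 2-cell stage.

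RefSeq promoter sequences were held for *Ccna1*, *Ccnb1*, *Ccnb2*, *Ccnd3*, *Ccne1* and *Cdk1*. The 250 bases before the start site are shown for the 2 B-type cyclins, whose levels were lower in IVF than in OC, and for *Cdk1* and *Ccne1*, whose levels were higher. They are written 5' to 3' on the gene's strand (GRCm38.p6), and capitals mark CCAAT and TTTGAA on either strand, motifs known as the CCAAT box and the cell cycle homology region of G2/M genes.
Ccnb1 (chr13:100786487-100786736, minus strand): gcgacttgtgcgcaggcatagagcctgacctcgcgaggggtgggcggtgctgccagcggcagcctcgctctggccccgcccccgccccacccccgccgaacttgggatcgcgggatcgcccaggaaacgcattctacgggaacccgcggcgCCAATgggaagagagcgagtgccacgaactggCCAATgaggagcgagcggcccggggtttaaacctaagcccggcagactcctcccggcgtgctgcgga
Ccnb2 (chr9:70421555-70421804, minus strand): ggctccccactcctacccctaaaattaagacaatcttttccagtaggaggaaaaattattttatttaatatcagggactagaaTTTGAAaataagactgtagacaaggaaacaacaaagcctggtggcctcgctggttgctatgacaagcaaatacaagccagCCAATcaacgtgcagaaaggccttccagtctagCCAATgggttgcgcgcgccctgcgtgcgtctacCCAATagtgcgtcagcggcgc
Cdk1 (chr10:69352913-69353162, minus strand): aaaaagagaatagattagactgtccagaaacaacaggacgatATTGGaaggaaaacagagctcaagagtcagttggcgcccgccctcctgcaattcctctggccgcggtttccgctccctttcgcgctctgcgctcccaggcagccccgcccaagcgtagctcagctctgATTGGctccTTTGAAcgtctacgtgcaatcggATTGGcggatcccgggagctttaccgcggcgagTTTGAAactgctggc
Ccne1 (chr7:38107491-38107740, minus strand): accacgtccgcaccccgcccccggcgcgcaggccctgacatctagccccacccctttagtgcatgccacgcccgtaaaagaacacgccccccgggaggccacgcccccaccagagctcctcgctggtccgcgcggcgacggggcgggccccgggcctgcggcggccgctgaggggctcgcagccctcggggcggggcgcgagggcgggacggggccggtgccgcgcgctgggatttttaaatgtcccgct

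The *Ccnb1* promoter held 2 matches to CCAAT or its reverse ATTGG, which began 99 and 67 bases before the start site. The *Ccnb2* promoter held 3, at 87, 54 and 21 bases, and the *Cdk1* promoter held 3, at 208, 80 and 48 bases. TTTGAA or its reverse TTCAAA began 167 bases before the start site of *Ccnb2* and 71 and 15 bases before that of *Cdk1*. *Ccne1* held neither motif in this window, of which 76.0% was G or C. Of 32851 promoter windows of the same length, 33.8% held CCAAT and 16.0% held TTTGAA on either strand, and the matches are a description of letters only. The motif TTTCGCGC or its reverse GCGCGAAA, a form of the E2F motif, was found in 0.3% of the windows and, among those of the members, only in *Cdk1*, 131 bases before the start site. The alternative form TTTCCCGC (reverse GCGGGAAA) occurred in 0.9% of the windows and in no window of a member.

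Levels are log2 processed signals relative to the 75th percentile of the same array, so that a level of 0 is the signal that 75% of the probes of the array do not exceed. They compare groups for 1 probe and not 1 gene with another. For genes with several probes, the lead probe is that with the highest mean over the 39 arrays. A gene was called when the limma test of its lead probe had a Benjamini-Hochberg adjusted p under 0.01 over all 39520 probes tested, and the 9 comparisons share arrays. The share of probes well above background was 48.7 to 60% on OC arrays, 58.3 to 65.8% on Cumulus arrays and 66.9 to 77.6% on embryo arrays. Most lead probes were bright: those of *Ccna2*, *Ccnb1*, *Ccnd3*, *Ccne1*, *Ccne2* and *Cdk1* were well above background on all 39 arrays and that of *Ccnb2* on the 38 that measured it, since 1 TSA(-) array had its spot marked as an outlier and was left out of every *Ccnb2* value. The lead probes of *Ccnd1*, *Ccnd2* and *Ccna1* were well above background on 38, 35 and 24 arrays. The OC, IVF, TSA(-) and TSA(+) arrays occupied 9 slides read on 5 days with scanner model G2505B. Model G2505C had read the Spi-C NT arrays (2 slides) and the Cumulus arrays (1 slide), so that in comparisons of these groups with the others the scanner, the slide and the group cannot be told apart.

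**Figure D1:**
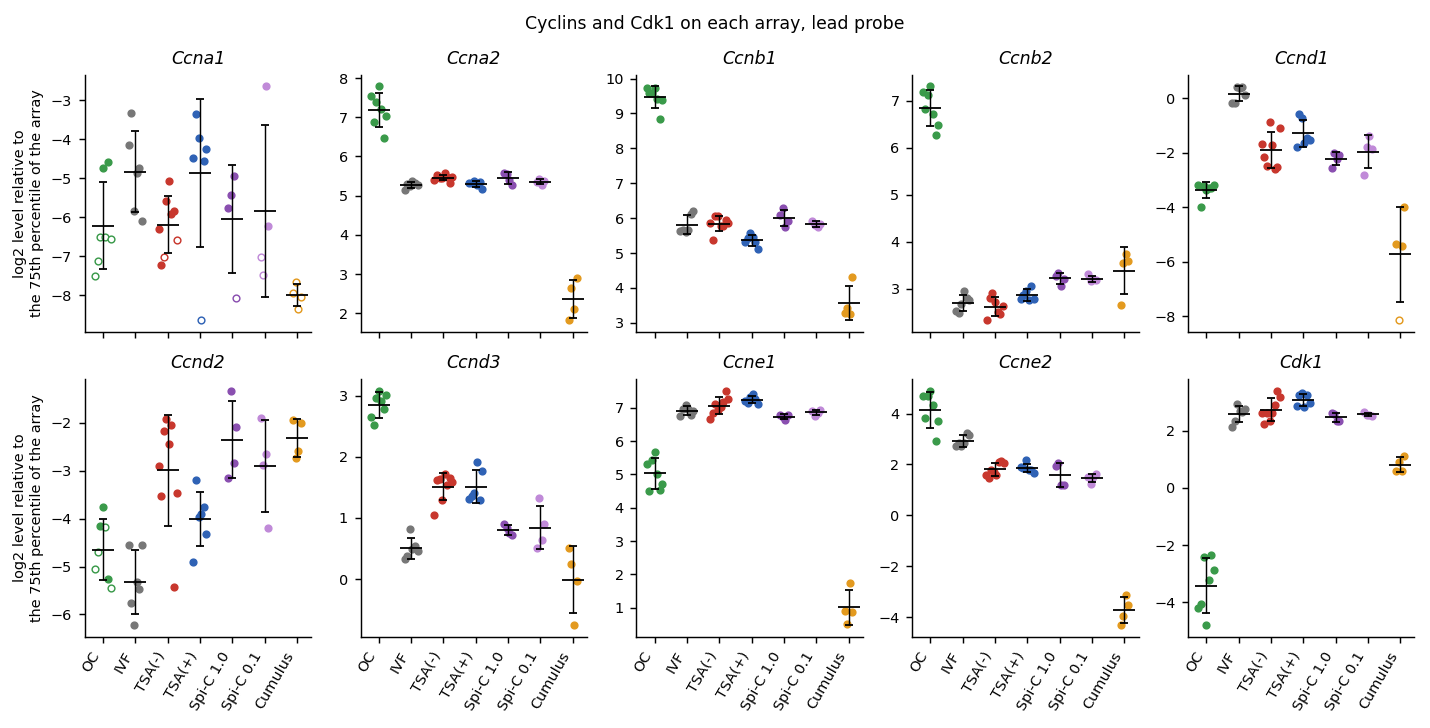
Level of each gene on each of the 39 arrays, as log2 signal of the lead probe relative to the 75th percentile of the array (y axis), by group (x axis). Filled points were well above background, open points were not, and bars give the mean and SD; *Ccnb1*, *Ccnb2* and *Ccnd3* are highest in OC and *Cdk1* is lowest there.

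The comparison of IVF with OC shows how the levels of these genes differ between the oocyte and the fertilized 2-cell embryo. The RNA was amplified from the poly(A) tail, so that tail length and transcript number cannot be told apart in these levels. *Cdk1*, *Ccnd1* and *Ccne1* were higher in IVF, *Ccnb1*, *Ccnb2* and *Ccnd3* were lower, and *Ccna2* and *Ccne2* were lower except after quantile normalization, where their differences had the opposite sign. So 3 of 10 genes were called higher and 5 lower, beside 23.4% of all probes called higher and 42.5% called lower. The median difference of all probes was -0.87 and that of the members -0.94. Of the probes called, 35.5% were higher with this scaling, 43.5% with quantile normalization and 24.0% with the arrays centred on their medians, and differences relative to the median of all probes are therefore given as well.

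*Ccnb1* (chr13:100778739-100786486), which encodes the main partner of Cdk1 at M phase, lay between 8.83 and 9.73 in OC (median 9.59) and between 5.6 and 6.20 in IVF (median 5.67). No IVF array reached the lowest OC array. The difference was -3.66 ± 0.17 (SE), a 12.7-fold lower level (limma, adjusted p = 1.9e-17), and -2.80 relative to the median of all probes. After quantile normalization it was -1.43. The other probes of *Ccnb1* differed by -2.49 and -4.55. *Ccnb2* (chr9:70407689-70421554), the second B-type cyclin of the M-phase kinase, ranged from 6.27 to 7.31 in OC (median 6.82) and from 2.49 to 2.95 in IVF (median 2.72), again with no overlap. Its difference of -4.14 ± 0.17, or 17.7-fold, was the largest fall among the lead probes of the members (adjusted p = 3.32e-18), and it was -2.11 after quantile normalization.

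*Cdk1* (chr10:69335146-69352912) ran the other way. Its level was -4.79 to -2.34 in OC (median -3.21) and 2.13 to 2.93 in IVF (median 2.67), which corresponds to median scanner signals of 45.2 and 7100 before scaling. The groups were far apart, and the difference of 5.99 ± 0.29 was a 63.6-fold higher level in IVF (limma, adjusted p = 4.36e-17), between 4.57 and 5.98 with the other scalings and background corrections. It was 5.07 and 5.56 within the 2 slides that held both groups, and 5.67 to 6.57 within 4 scan days. The second probe of *Cdk1* was well above background on only 4 of 39 arrays and 0 of the 7 OC arrays, and is given no fold.

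*Ccna2* (chr3:36564865-36573038), the A-type cyclin of somatic cells, had levels of 6.47 to 7.79 in OC (median 7.20) and 5.14 to 5.38 in IVF (median 5.29). The difference was -1.90 ± 0.17 (adjusted p = 3.01e-11), or -1.04 relative to the median of all probes, but it was 0.29 after quantile normalization (adjusted p = 0.0685) and -2.63 with median centring. The scanner signals before scaling had medians of 56300 in OC and 44900 in IVF. *Ccna1* (chr3:55045469-55057634), the A-type cyclin best known from male meiosis, was dim: its probe was well above background on 2 of 7 OC arrays (range -7.50 to -4.58, median -6.50) and 6 of 6 IVF arrays (range -6.11 to -3.32, median -4.80). The ranges overlapped and the difference of 1.38 ± 0.62 was not called (adjusted p = 0.0469), while after normexp background correction it was -0.79 with an adjusted p of 0.000237, so that no direction is given for *Ccna1*.

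The E-type cyclins, which drive entry into S phase, moved apart. *Ccne1* (chr7:38097984-38107490) lay between 4.51 and 5.68 in OC (median 5.01) and between 6.75 and 7.10 in IVF (median 6.94), without overlap, and was 3.69-fold higher in IVF (difference 1.88 ± 0.19, limma, adjusted p = 6.27e-10). The difference was 3.52 after quantile normalization and 1.16 with median centring. Its second probe differed by 1.84. *Ccne2* (chr4:11190433-11204779) lay between 2.92 and 4.89 in OC (median 4.34) and between 2.71 and 3.24 in IVF (median 2.85), where the lowest OC array fell within the range of IVF. The difference was -1.22 ± 0.24 (adjusted p = 4.3e-05), but only -0.36 relative to the median of all probes and 0.14 after quantile normalization, against -1.95 with median centring.

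Among the D-type cyclins, which link growth signals to Cdk4 and Cdk6, *Ccnd1* (chr7:144929931-144939831) rose from a range of -4.00 to -3.18 in OC (median -3.29) to -0.17 to 0.40 in IVF (median 0.25). All IVF arrays exceeded all OC arrays, by 3.52 ± 0.40 on average (11.5-fold, adjusted p = 6.08e-09), with 2.79 after median centring and 2.24 after normexp. *Ccnd3* (chr17:47505051-47599689) fell from 2.52 to 3.08 in OC (median 2.92) to 0.33 to 0.82 in IVF (median 0.48), a 5.07-fold lower level (difference -2.34, adjusted p = 3.08e-13), with -1.53 after quantile normalization and -3.07 after median centring. *Ccnd2* (chr6:127125162-127152188) had no call on its lead probe (difference -0.67 ± 0.43), which was well above background on 3 of 7 OC arrays. The same probe was called lower with median centring (-1.39, adjusted p = 0.00315), quantile normalization (-1.29, adjusted p = 0.00842) and normexp (-1.25, adjusted p = 1.13e-05). Its other probes differed by 1.62 (adjusted p = 0.000291) and 1.11 (adjusted p = 0.0644), each well above background on 1 OC array, so that the 3 probes of *Ccnd2* did not share a direction here.

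**Figure D2:**
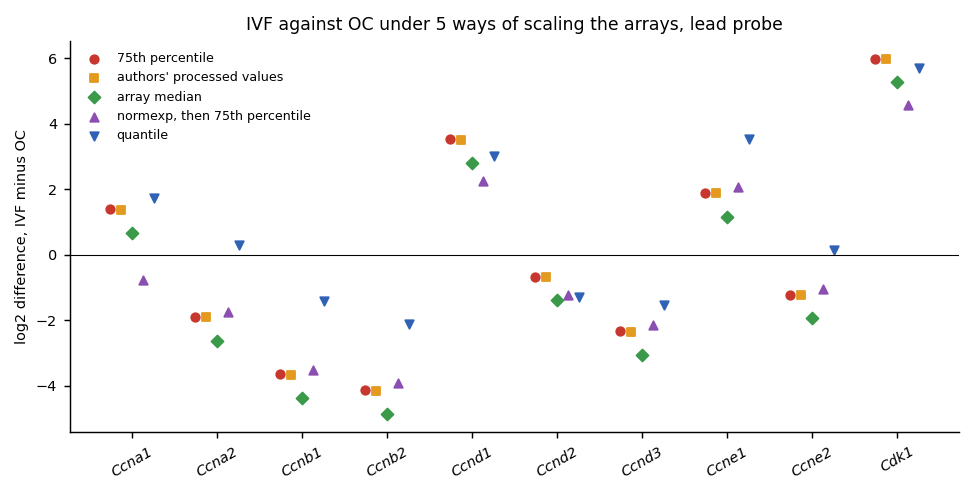
Log2 difference between IVF and OC (y axis) of each lead probe (x axis) after 5 ways of scaling or background correction. *Cdk1*, *Ccnd1* and *Ccne1* stay above 0 and *Ccnb1*, *Ccnb2*, *Ccnd2* and *Ccnd3* below 0 in all 5, while *Ccna2*, *Ccne2* and the dim *Ccna1* change sign.

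**Figure D3:**
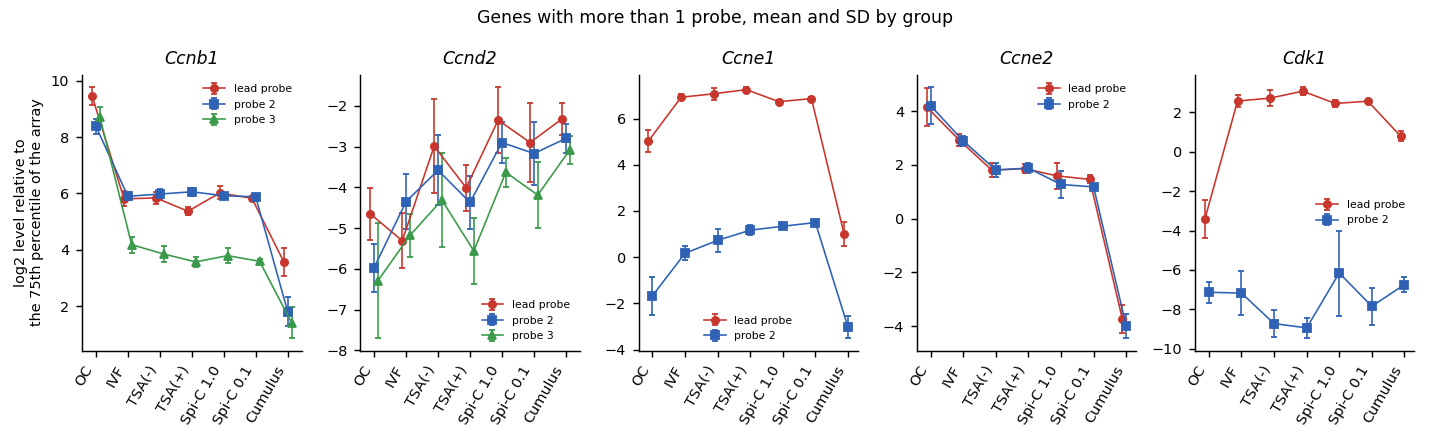
Mean level and SD by group (x axis) of every probe of the 5 genes with more than 1 probe, as log2 signal relative to the 75th percentile of the array (y axis). Lines join the means of 1 probe, heights of different probes are not comparable, and probe 2 of *Cdk1* was near background in all groups; the probes of *Ccnd2* differ in their order of OC and IVF.

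Cloned embryos were compared with IVF embryos of the same stage to find genes whose level differed between them. The labels do not give the phase of the cell cycle, so timing within the 2-cell stage and how the embryo was made cannot be told apart. In TSA(-), *Ccnd1* and *Ccne2* were lower and *Ccnd2* and *Ccnd3* higher than in IVF. None of *Ccne1*, *Cdk1*, *Ccna1*, *Ccna2*, *Ccnb1* or *Ccnb2* was called. With the slide as a fixed block, *Ccnd2* (limma, adjusted p = 0.0111) and *Ccne2* (adjusted p = 0.0164) missed the threshold. Without that block, the 2 of 10 called higher compare with 8.68% of all probes, and the 2 of 10 called lower with 9.94%. In TSA(+), *Ccnd3* was the 1 gene called higher (8.02% of all probes) and *Ccnd1* and *Ccne2* the 2 called lower (10.8% of all probes). The median difference of all probes was -0.03 for TSA(-) and -0.22 for TSA(+), and centring on array medians moved the share of higher probes among those called from 42.7 to 62.1% for TSA(+). Both comparisons use the same IVF arrays.

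*Ccnd1* ranged from -2.61 to -0.88 in TSA(-) (median -1.94) and from -1.78 to -0.58 in TSA(+) (median -1.50), against -0.17 to 0.40 in IVF. No array of either cloned group reached the lowest IVF array. The level was 4.15-fold lower in TSA(-) (difference -2.05 ± 0.39, limma, adjusted p = 0.000172) and 2.73-fold lower in TSA(+) (difference -1.45 ± 0.42, or -1.23 relative to the median of all probes, adjusted p = 0.00927). Within the slides that held both groups the differences were -3.0 to -1.24 for TSA(-) and -1.61 to -1.23 for TSA(+). The call in TSA(+) was close to the limit: without any 1 of the 6 IVF replicates or without TSA(+) replicate 1, 4, 5 or 6, the difference was -1.51 to -1.35 and the adjusted p 0.0116 to 0.0224. It was also lost with median centring (-1.22, adjusted p = 0.024) and with Tukey's test (adjusted p = 0.0178). Of 10 listed markers of the 2-cell embryo, 7 were on the array. Their summed level, on a linear scale where 1 is the 75th percentile, ran from 245 to 338 on IVF arrays. It was 56.2 to 168 for TSA(-), 86.2 to 168 for TSA(+) and 27.0 to 41.6 for OC. The mean of each marker was higher in IVF than in TSA(-), TSA(+) and OC. Unlike *Ccnd1*, *Zscan4c* was not lower in OC than in the clones, with means of 0.60 in OC, 0.35 in TSA(-) and 0.12 in TSA(+). The means of the other markers were lower in OC than in TSA(-) and TSA(+). All 7 were well above background on every embryo array, and their part in the result was not tested.

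*Ccne2* showed the same order with less spread. Its level was 1.48 to 2.15 in TSA(-) (median 1.76) and 1.68 to 2.16 in TSA(+) (median 1.83), below the 2.71 to 3.24 of IVF on every array. The differences were -1.12 ± 0.23 for TSA(-) (adjusted p = 0.000474) and -1.06 ± 0.25 for TSA(+) (adjusted p = 0.00166), and the second probe gave -1.08 and -1.01. Within shared slides they were -1.25 to -0.78 and -1.23 to -0.82. With the slide as a fixed block both kept their size (-1.20 and -1.04) and missed the threshold (adjusted p = 0.0164 and 0.0153), and with the arrays centred on their medians so did TSA(+) (-0.83, adjusted p = 0.0133). *Ccne1*, the other E-type cyclin, differed by 0.15 (95% interval -0.23 to 0.54) in TSA(-) and 0.33 (-0.08 to 0.74) in TSA(+). All TSA(+) arrays (7.13 to 7.42) lay above all IVF arrays (6.75 to 7.10). The SD of *Ccne1* was 0.11 in TSA(+) and 0.13 in IVF, against 0.47 in OC and 0.52 in Cumulus, which entered the same fit. Its second probe differed by 0.56 (adjusted p = 0.154) and 0.99 (adjusted p = 0.0138), with the TSA(+) and IVF ranges again apart. After quantile normalization the lead probe was called in TSA(+) (0.54, adjusted p = 0.00666).

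*Ccnd3* was the member with the opposite change that held in both cloned groups. It ranged from 1.05 to 1.72 in TSA(-) (median 1.60) and from 1.30 to 1.92 in TSA(+) (median 1.38), above all IVF arrays (0.33 to 0.82). Each group was 2.01-fold above IVF (limma, adjusted p = 2.46e-05 and 6.15e-05), and the differences within shared slides were 1.04 to 1.29 and 0.64 to 1.13. The levels of the clones were between those of IVF and OC, whose lowest array had 2.52.

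*Ccnd2* was spread more widely among the TSA(-) pools (SD 1.16) than in IVF (SD 0.67). In TSA(-) 7 of 8 arrays lay between -3.52 and -1.92, and replicate 7 lay at -5.43, inside the IVF range of -6.22 to -4.54. The lead probe differed by 2.33 ± 0.42 (adjusted p = 7.79e-05), but the other probes by 0.77 (adjusted p = 0.116) and 0.87 (adjusted p = 0.243). With the slide as a fixed block the lead probe's difference was 2.33 again, with an adjusted p of 0.0111. Within the slides that held both groups it was 1.02 to 3.28, but within 1 of 4 scan days it was -0.87. Replicate 7 was the only TSA(-) array of that day. It had 490 missing probe values, against 0 to 56 on the other TSA(-) arrays, and was the array left out of the *Ccnb2* values. After normexp the difference of the lead probe was 1.07. In TSA(+), at -4.90 to -3.20, the lead probe differed from IVF by 1.31 ± 0.44 (adjusted p = 0.0268) and the other probes by -0.02 and -0.38. The lead probe was called with median centring (1.54, adjusted p = 0.00751) and quantile normalization (1.52, adjusted p = 0.00909), but differed by 0.39 after normexp. *Ccnd2* was also high in Cumulus (-1.93, -2.73, -2.59 and -2.01). The 13 listed markers of cumulus and granulosa cells had a summed level of 255 to 279 in Cumulus, against 4.57 to 8.99 for TSA(-), 4.85 to 8.62 for IVF, 8.34 to 11.3 for TSA(+) and 1.39 to 3.76 for OC, so that TSA(-) and IVF overlapped. The part of these genes in the result was not tested. *Amhr2*, at mean levels of 2.55 in TSA(-), 2.60 in IVF and 3.14 in TSA(+), made up most of the sum in the embryos. Of the dimmer markers, *Vcan* had mean levels of -5.27 in TSA(-) (well above background on 7 of 8 arrays), -6.67 in IVF (3 of 6) and -7.79 in TSA(+) (2 of 6). *Inhba* had -4.34 (7 of 8), -6.43 (3 of 6) and -5.99 (4 of 6). Among these 3 groups the means of *Vcan*, *Inhba*, *Has2*, *Cyp11a1*, *Foxl2* and *Cd44* were highest in TSA(-), as was that of *Ccnd2*. Those of *Ptx3*, *Tnfaip6*, *Amh*, *Amhr2*, *Fshr*, *Star* and *Lhcgr* were not. *Tnfaip6* had -4.03 in TSA(-) against -1.71 in IVF, and *Ptx3* had -7.14 against -5.99.

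No lead probe of the mitotic genes was called in TSA(-) or TSA(+) against IVF with the main scaling. *Ccna2* lay between 5.33 and 5.57 in TSA(-), 5.17 and 5.38 in TSA(+) and 5.14 and 5.38 in IVF. The 95% intervals of its differences from IVF were -0.15 to 0.52 and -0.33 to 0.38. Its SD was 0.07 in TSA(-), 0.07 in TSA(+) and 0.08 in IVF, but 0.44 in OC and 0.49 in Cumulus. OC and Cumulus share the fit and widen these intervals. For *Ccnb1* the intervals were -0.32 to 0.37 in TSA(-) and -0.81 to -0.07 in TSA(+). Its SD was 0.22 in TSA(-), 0.15 in TSA(+) and 0.27 in IVF, against 0.31 in OC and 0.50 in Cumulus, which share that fit. All TSA(+) arrays of *Ccnb1* (5.12 to 5.57) were below all IVF arrays (5.6 to 6.20) on the lead probe (adjusted p = 0.0667), while the other probes differed by 0.16 (adjusted p = 0.496) and -0.61 (adjusted p = 0.0205). *Ccnb2* ranged from 2.33 to 2.91 on the 7 TSA(-) arrays that measured it and from 2.76 to 3.07 in TSA(+), with intervals of -0.44 to 0.28 and -0.21 to 0.54. *Cdk1* ranged from 2.22 to 3.39 and from 2.84 to 3.33, with intervals of -0.43 to 0.74 and -0.13 to 1.12. *Ccna1* was well above background on 6 of 8 TSA(-) and 5 of 6 TSA(+) arrays and differed from IVF by -1.36 ± 0.61 and -0.04 ± 0.65. After normexp the first of these was called (-0.70, adjusted p = 0.00279).

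**Figure D4:**
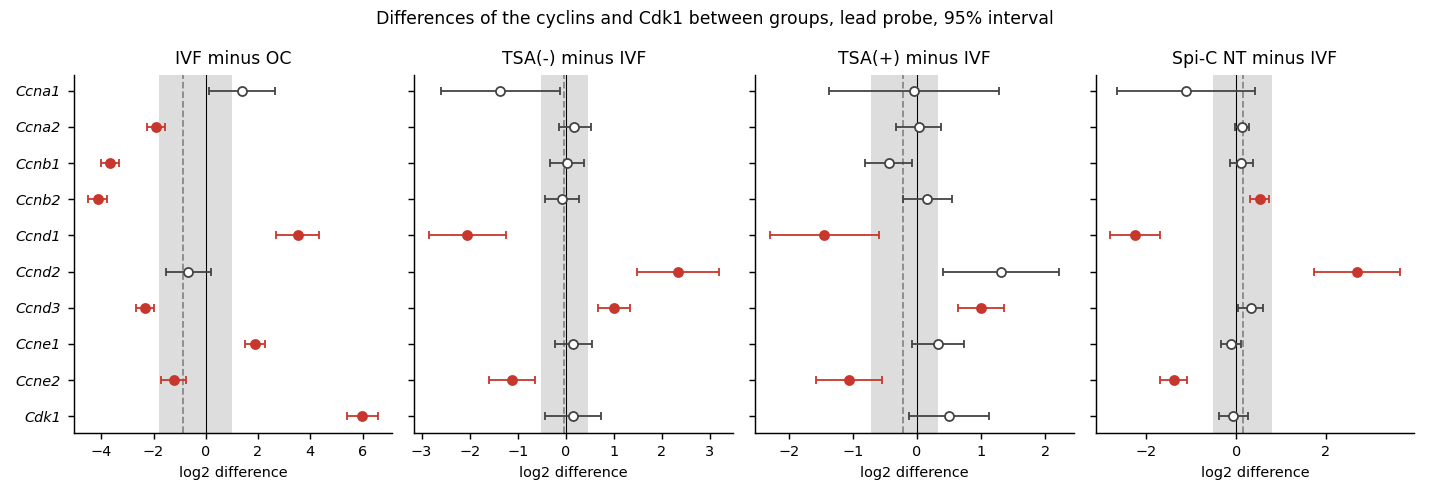
Log2 difference (x axis) of each lead probe (y axis) between 2 groups with its 95% interval, in 4 comparisons. Red points had an adjusted p under 0.01, the grey band spans the middle 50% of all probes and the dashed line is their median; *Ccnd1* and *Ccne2* lie below the band in all 3 comparisons of clones with IVF. In the comparison with OC, *Ccna2* and *Ccne2* change sign after quantile normalization.

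The direct comparison of TSA(+) with TSA(-) asks what TSA changed in clones. None of the 10 genes was called by limma, where 0.137% of all probes were called in either direction, and 3 had an unadjusted p under 0.05, as did 6446 of the 39520 probes. These were *Ccna1* (1.32 ± 0.61), *Ccnb1* (-0.47 ± 0.17) and *Ccnd2* (-1.02 ± 0.42), whose ranges overlapped. The 3 probes of *Ccnd2* were all lower in TSA(+), by 1.02, 0.79 and 1.25, with adjusted p between 0.21 and 0.266. Those of *Ccnb1* differed by -0.47, 0.08 and -0.28. The difference was 0.61 (95% interval -0.19 to 1.41) for *Ccnd1*, 0.06 (-0.42 to 0.53) for *Ccne2* and 0.00 (-0.34 to 0.34) for *Ccnd3*, the genes called against IVF in both groups. The share of higher probes among those called was 31.5% with this scaling, 48.7% with quantile normalization and 66.1% with median centring.

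Cumulus cells show how the nuclear donors stood before transfer. Against OC, *Cdk1* and *Ccnd2* were higher and 7 genes lower, namely *Ccna2*, *Ccnb1*, *Ccnb2*, *Ccnd1*, *Ccnd3*, *Ccne1* and *Ccne2*. The counts were 2 of 10 higher (23.6% of all probes) and 7 of 10 lower (43.9% of all probes), with a median difference of -3.16 for the members and -1.12 for all probes. Against TSA(-), the embryos made from these cells, *Ccnb2* was higher (1 of 10, 24.5% of all probes) and 7 genes were lower (30.5% of all probes), with a median of -2.10 for the members and -0.11 for all probes. Of the probes called, 35% were higher against OC (46.1% with quantile normalization) and 44.5% against TSA(-) (64.0% with median centring). Cumulus arrays held 11 of the 13 cumulus and granulosa markers well above background on every array, and 6 of the 9 oocyte markers on the array were above background on none. The 3 of 4 listed blood cell markers on the array were also above background on every Cumulus array, with a summed level of 21.7 to 104 against 0.0389 to 1.37 in all other groups, led by *Lyz2*, and their part in the results was not tested. The sizes of the differences moved with the scaling. Against OC, quantile normalization gave -2.92 for *Ccna2*, -3.86 for *Ccnb1*, -2.69 for *Ccne1*, -6.18 for *Ccne2* and -2.08 for *Ccnd3*, and normexp gave 2.87 for *Cdk1* and -1.35 for *Ccnd1*. Against TSA(-), median centring gave -2.26 for *Ccna2*, -1.43 for *Ccnb1*, -5.22 for *Ccne1*, -4.68 for *Ccne2*, -0.68 for *Ccnd3* and -1.09 for *Cdk1*. All of these were called by limma.

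*Ccne2* was lowest in Cumulus, at -4.30, -3.94, -3.11 and -3.52, against 2.92 or more in OC and 1.48 or more in TSA(-). It was 233-fold lower than in OC (difference -7.86 ± 0.27, limma, adjusted p = 2.87e-21) and 45.9-fold lower than in TSA(-). *Ccne1* had levels of 0.91, 0.51, 1.75 and 0.87 and was 16.2-fold lower than in OC and 66.8-fold lower than in TSA(-). On the lead probes both E-type cyclins lay below every oocyte and embryo array. The second probe of *Ccne1* differed by -1.35 from OC with overlapping ranges and by -3.75 from TSA(-) without overlap. *Ccna2*, at 1.82, 2.64, 2.11 and 2.89, was 28.2-fold lower than in OC and 8.56-fold lower than in TSA(-).

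The B-type cyclins separated in the cumulus cells. *Ccnb1* had levels of 3.29, 3.42, 3.26 and 4.31 and was below OC by 5.90 and below TSA(-) by 2.27 on the log2 scale (adjusted p = 1.26e-21 and 1.12e-11). *Ccnb2* had levels of 2.65, 3.56, 3.74 and 3.60. It was 11-fold lower than in OC but 1.70-fold higher than in TSA(-) (difference 0.77 ± 0.20, adjusted p = 0.00123), where replicate 1 fell inside the TSA(-) range and the call was lost without Cumulus replicate 3 (0.65, adjusted p = 0.01) and when only these 2 groups were fitted (adjusted p = 0.0112). The difference from TSA(-) was 1.62 with median centring, and that from OC moved from -3.46 to -1.54 after quantile normalization. *Cdk1*, at 0.60, 0.89, 0.58 and 1.13, was 18.5-fold higher than in OC and 3.81-fold lower than in TSA(-). That second difference was -1.93 on the lead probe and 0.03 when it was averaged with the probe that was mostly at background.

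*Ccnd1* was low in the donors, at -5.34, -8.15, -5.42 and -4.00, with 3 of 4 arrays well above background, and was 14.3-fold lower than in TSA(-) (difference -3.83 ± 0.44, limma, adjusted p = 8.22e-09). The lowest array, replicate 2, was the one not above background, and the difference was -1.74 after normexp. *Ccnd3* had levels of 0.51, 0.24, -0.75 and -0.03, 7.25-fold lower than OC and 2.87-fold lower than TSA(-). *Ccnd2* was 5.02-fold higher than in OC on the lead probe (difference 2.33 ± 0.48, adjusted p = 8.69e-05), although after normexp correction the difference was 0.41 (adjusted p = 0.14). The other probes were also called higher, and no fold is given for them because each was well above background on 1 of 7 OC arrays. The lead probe's difference from TSA(-) was 0.67 (95% interval -0.30 to 1.63), but 1.51 with median centring, which was called (adjusted p = 0.00442), and 1.17 after quantile normalization (adjusted p = 0.0292). *Ccna1* was above background on 0 of 4 Cumulus arrays.

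Clones injected with Spi-C mRNA were compared with TSA(-) and with IVF. Against TSA(-), *Ccnb2* was higher (1 of 10, 11.9% of all probes) and *Ccnd3* lower (1 of 10, 8.93% of all probes). Against IVF, *Ccnb2* and *Ccnd2* were higher (2 of 10, 19.4% of all probes) and *Ccnd1* and *Ccne2* lower (2 of 10, 16.6% of all probes). The median difference of all probes was 0.14 and 0.15, and centring on medians moved the share of higher probes among those called against TSA(-) from 57.1 to 37.2%. Normexp moved it to 23.6% against TSA(-) and from 53.9 to 24.4% against IVF. These comparisons cross the change of scanner given above, and no slide or scan day held Spi-C NT arrays together with TSA(-) or IVF arrays.

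*Ccnb2* lay at 3.27, 3.34, 3.07 and 3.22 in Spi-C 1.0 and at 3.31, 3.17, 3.21 and 3.18 in Spi-C 0.1, above every TSA(-) array (2.33 to 2.91) and every IVF array (2.49 to 2.95). It was 1.51-fold above TSA(-) (difference 0.60 ± 0.10, or 0.46 relative to the median of all probes, limma, adjusted p = 3.48e-05) and 1.43-fold above IVF (adjusted p = 0.000144). *Ccnd3* lay at 0.91, 0.83, 0.76 and 0.72 in Spi-C 1.0 and at 0.51, 1.32, 0.64 and 0.90 in Spi-C 0.1. It was 1.61-fold below TSA(-) (difference -0.69 ± 0.12, adjusted p = 0.000131), with 1 Spi-C 0.1 array inside the TSA(-) range, and its difference from IVF was 0.32 ± 0.13 (adjusted p = 0.0569).

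*Ccnd1* had levels of -2.55, -2.01, -2.23 and -2.10 in Spi-C 1.0 and -2.80, -1.79, -1.38 and -1.87 in Spi-C 0.1, all below IVF (difference -2.25 ± 0.27, limma, adjusted p = 1.76e-07). The summed level of the 2-cell markers was 62.7 to 85.6 in Spi-C 1.0 and 47.3 to 81.1 in Spi-C 0.1, also below the 245 to 338 of IVF, and its part in the result was not tested. The difference of *Ccnd1* from TSA(-) was -0.20 (95% interval -0.71 to 0.32). *Ccne2* had levels of 1.95, 2.05, 1.18 and 1.19 in Spi-C 1.0 and 1.49, 1.25, 1.49 and 1.61 in Spi-C 0.1 and was 2.63-fold below IVF (adjusted p = 2.49e-08). Against TSA(-) its probes differed by -0.28 (adjusted p = 0.131) and -0.59 (adjusted p = 0.00148). *Ccnd2* had levels of -3.15, -1.33, -2.83 and -2.08 in Spi-C 1.0 and -1.89, -2.88, -2.64 and -4.20 in Spi-C 0.1, all above IVF on the lead probe (difference 2.69 ± 0.46, adjusted p = 3.21e-05, or 1.24 after normexp), and its other probes differed by 1.32 (adjusted p = 0.00585) and 1.27 (adjusted p = 0.0206). The probes of *Ccne1* went opposite ways against TSA(-), with -0.27 on the lead probe (adjusted p = 0.0357) and 0.68 on the other (adjusted p = 0.00263). Against IVF they gave -0.12 (adjusted p = 0.376) and 1.24 (adjusted p = 3.09e-06), so no direction is given for that gene. Its lead probe was called lower than TSA(-) with median centring (-0.45, adjusted p = 0.00686) and higher than IVF after quantile normalization (0.42, adjusted p = 0.000416).

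The lead probes of the mitotic genes other than *Ccnb2* were not called in Spi-C NT. The 95% intervals of the difference from TSA(-) were -0.20 to 0.08 for *Ccna2*, -0.15 to 0.32 for *Ccnb1* and -0.52 to 0.08 for *Cdk1*. Against IVF the lead probe of *Ccnb1* differed by 0.11 and the others by 0.01 and -0.49, the last with an adjusted p of 0.00466 by limma. After quantile normalization the lead probes of *Ccna2* (0.47, adjusted p = 6.44e-05) and *Ccnb1* (0.51, adjusted p = 0.000352) were called higher than IVF. *Ccna1* was well above background on 3 of 4 Spi-C 1.0 arrays (levels -5.76, -5.43, -4.95 and -8.08) and 2 of 4 Spi-C 0.1 arrays (-7.02, -7.49, -2.64 and -6.22). Between the 2 mRNA concentrations, which shared both slides, limma called none of the 10 genes and 0.00506% of all probes, and 0 members had an unadjusted p under 0.05, beside 1611 of the 39520 probes. The intervals of that difference were -0.26 to 0.28 for *Ccnb2* and -0.40 to 0.33 for *Ccnd3*, but -0.70 to 1.81 for *Ccnd2* and -2.24 to 1.81 for *Ccna1*.

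Ordered by mean level with the main scaling, *Ccnb1*, *Ccnb2*, *Ccnd3* and *Ccna2* each had OC first and apart from the next group, although *Ccna2* was 0.29 higher in IVF than in OC after quantile normalization. *Ccna2* and *Ccnb1* had Cumulus last and apart from the group before it, as did *Ccne1* and *Ccne2*. *Cdk1* had OC last, below Cumulus, and the 5 embryo groups above both with overlapping neighbours. *Ccnd1* had IVF first and apart from TSA(+), followed by the other clones with overlapping neighbours, then OC and Cumulus. For *Ccne2*, IVF came second behind OC with overlapping ranges (0.14 above it after quantile normalization) and apart from TSA(+) below it. For *Ccnd2* every pair of neighbours overlapped, from Cumulus at the top to IVF at the bottom.

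Of a list of 52 other cell cycle regulators, 50 were on the array and tested, and they were counted by lead probe. From OC to IVF, 18 of 50 were called higher and 24 lower (23.4% and 42.5% of all probes), with a median difference of -0.52. The highest non-overlapping differences were *E2f7* (a transcriptional repressor, at least 120-fold higher, with means of 1.65 in IVF and -7.30 in OC, adjusted p = 1.03e-23), *Cdkn1a* (the inhibitor p21, 6.12) and *Ccng1* (5.27). The lowest were *Mos*, the kinase of metaphase II arrest (-9.59), *Ccno* (-3.79) and *Fbxo43*, which restrains the anaphase-promoting complex in the oocyte (-3.29). Against IVF, TSA(-) had 3 of 50 higher and 10 lower (8.68% and 9.94% of all probes). TSA(+) had 3 higher and 11 lower (8.02% and 10.8% of all probes). *Mnat1* and *Cdk7*, partners in the CDK-activating kinase, were higher by 1.11 and 0.56 in TSA(-) and by 1.41 and 0.93 in TSA(+), with *Cdk4* higher by 1.05 in TSA(+). The CDK inhibitors *Cdkn2b*, *Cdkn2a* and *Cdkn1c* were lower by 4.72, 2.67 and 2.35 in TSA(-) and by 3.92, 2.72 and 2.18 in TSA(+), of which *Cdkn2a* was above background on 1 of 8 and 3 of 6 arrays. TSA(+) and TSA(-) differed in 0 of 50 by limma (0.137% of all probes).

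Spi-C NT had 6 of 50 regulators higher and 13 lower than TSA(-) (11.9% and 8.93% of all probes). Against IVF it had 6 higher and 18 lower (19.4% and 16.6% of all probes). These comparisons and those of Cumulus below cross the change of scanner given above, so that scanner and group cannot be told apart. *E2f2* was higher by 1.57 and 1.59, and against IVF *Mnat1* by 1.27 and *Cdc25c*, a phosphatase that activates Cdk1, by 1.24. *Cdk2*, the partner of the E-type cyclins, was lower by 3.49 than TSA(-) and by 3.59 than IVF, *E2f4* and *Cdkn2d* were lower by 1.78 and 1.18 than TSA(-), and *Cdkn2b* and *Cdkn1c* were lower by 4.13 and 2.68 than IVF. Cumulus had 11 higher and 32 lower than OC (23.6% and 43.9% of all probes), and 7 higher and 34 lower than TSA(-) (24.5% and 30.5% of all probes). Higher were *Cdkn1a* (7.87), *E2f3* (7.36) and *Cdk4* (6.08) against OC and *Cdkn2b* (8.45), *Cdkn1b* (3.56) and *Cdk4* (3.47) against TSA(-). Lower were *Wee2*, the oocyte kinase that inhibits Cdk1 (at least 11400-fold against OC and 5750-fold against TSA(-)), *Mos* (at least 4160-fold against OC), *Cdk6* (at least 68.4-fold against TSA(-)) and *Fbxo43* (differences of -12.73 and -9.19, above background on 1 of 4 Cumulus arrays). For the genes given with a lower bound, the dimmer group was not well above background on any array, and its measured means were -8.46 for *Wee2*, -8.13 for *Mos* and -8.19 for *Cdk6*, against 7.0, 5.55 and -0.37 in the brighter group and 6.02 for *Wee2* in TSA(-). Between the mRNA concentrations 0 of 50 were called (0.00506% of all probes).

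The genes nearest to each member were found by the root mean square log2 difference over the 39 arrays, after each probe was set relative to its own mean, among 16185 named genes well above background in at least 1 group. The measure follows the differences between groups, which all arrays of a group share. *Ccnb1* lay 0.249 from *Dnajb4* and 0.267 from *Slc39a10*, where its own values spread by 1.692 about their mean. *Ccna2* lay 0.252 from *Smurf2* and 0.256 from *Mllt11*, and *Ccnb2* 0.296 from *Naa35* and 0.318 from *Osr1*. *Ccnd3* lay 0.309 from both *Mcrs1* and *Cul2*, *Ccne1* 0.310 from *Scamp1* and 0.389 from *Mybl2*, and *Ccne2* 0.340 from *Mphosph6* and 0.4 from *E2f5*. *Cdk1* lay 0.528 from *Uck2* and 0.555 from *Zfp790*. The dimmer genes had no neighbour as near, with 0.723 (*Phf11a*) and 0.758 (*Clhc1*) for *Ccnd1*, 0.814 (*Dtd1*) and 0.847 (*Angptl8*) for *Ccnd2*, and 1.207 (*Fut2*) and 1.221 (*Grifin*) for *Ccna1*, whose own spread was 1.499.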

How the data were processed

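RNA was taken through 2 rounds of linear amplification, which start from the poly(A) tail, so that tail length and transcript number cannot be told apart. It was labelled with Cy3 and hybridized to the Agilent Whole Mouse Genome 44 K array. The authors deposited scanner files, whose processed signal is an intensity corrected for background by Feature Extraction (version 9.5.3.1 in the labels and in the headers of the OC, IVF and TSA arrays, and 10.5.1.1 in the other headers), not normalized between arrays. They also deposited a table of log2 values, which followed the scaled and probe-centred signal (median absolute difference 0.018) and served as an alternative.

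Spots marked as outliers were left out, spots of a probe were averaged, and log2 signals were scaled to the 75th percentile of their array. Probes whose signal reached 10 on any IVF or SCNT array (39520) were tested with lmFit and eBayes of limma 3.58.1 (R 4.3.3, statmod 1.5.0) and Benjamini-Hochberg adjustment. OC, IVF, TSA(-), TSA(+) and Cumulus were fitted together, and IVF, TSA(-), TSA(+) and both Spi-C groups together, with Spi-C NT as the mean of its 2 groups. Fits were checked on simulated data. Depth is not defined for arrays, and their number limits the precision. Symbols came from RefSeq (GRCm38.p6) through probe accessions (27861 of 41174 probes). The accession of the single *Ccnd1* probe matched RefSeq only in the design version of the OC, IVF and TSA files. In the design version of the Spi-C and Cumulus files it had no match, and there the probe was taken as *Ccnd1* by its probe name.

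All members were named. Of the regulators, up to 3 called genes per direction with the largest differences and no overlap were named, and for each member the 2 nearest genes. The members and lists were chosen with earlier results of these data known. Lower bounds set the mean of the brighter group against, per array of the dimmer group, the higher of its own value and the lowest level among probes well above background. The alternatives were quantile normalization, median centring, normexp (offset 50) on the deposited intensities of spot and background, the authors' values, filters, blocks for slide, scan day and replicate number, Tukey's test, other thresholds and probe rules, and leaving out each array.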

Additional observations from a re-analysis of the deposited data

Results flagged for a closer look

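With 70 groups of lead probes examined, 7 held an array whose gap to its nearest neighbour was large for the range of the group, where chance gives about 5% of groups. *Ccna1* in TSA(+) replicate 4 stood at -8.65 against -4.57 to -3.35 on the other arrays, and it was the one TSA(+) array on which the probe was not well above background. *Ccnb1* stood at 8.83 in OC replicate 6 (others 9.40 to 9.73), at 5.37 in TSA(-) replicate 2 (others 5.78 to 6.07) and at 4.31 in Cumulus replicate 4 (others 3.26 to 3.42). *Ccnb2* in Cumulus replicate 1 stood at 2.65 (others 3.56 to 3.74). *Ccnd1* in OC replicate 2 stood at -4.00 (others -3.36 to -3.18). *Ccnd2* in TSA(-) replicate 7 stood at -5.43 (others -3.52 to -1.92).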

How the results depend on the processing

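Of the 38 called differences of the members, 454 values were obtained under settings other than leaving out an array, of which 442 kept direction and call, 9 kept direction only and 3 reversed. The reversed values were 0.29 for *Ccna2* and 0.14 for *Ccne2* in IVF minus OC after quantile normalization, and 0.03 for *Cdk1* in Cumulus minus TSA(-) with its probes averaged, 1 of which was near background. Leaving out each array in turn kept 468 of 479 values past the threshold and reversed 0. The number of members called moved from 4 to 2 in TSA(-) minus IVF with the slide as a fixed block, from 3 to 5 in TSA(+) minus IVF and from 4 to 7 in Spi-C NT minus IVF after quantile normalization, and in Spi-C NT minus TSA(-) from 2 to 0 with a change of at least 2-fold and to 4 with any probe of the gene. The causes were not tested. Arrays with the same replicate number did not deviate together (correlations -0.09 to 0.08, 0 pairs over 0.1), so the numbers were not taken as pairs. With the replicate block, limma called 8, 4, 2, 0, 9, 8, 2, 4 and 0 members in the 9 comparisons, in the order of the report, where TSA(+) minus IVF lost *Ccnd1* (adjusted p = 0.0105). Tukey's test called 241 and 563 of all probes higher and lower in TSA(+) minus TSA(-), against 17 and 37 by limma. These counts use unlike thresholds: with Tukey's test only the p of the preceding one-way test was adjusted over all probes, and the pairwise p was not. Signal over background limits *Ccna1*, *Ccnd2* in OC, *Ccnd1* in Cumulus and the second probe of *Cdk1*.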
